A study of Mus musculus with 3 samples.

Results

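The genes described here are 39 genes of the G2 and M phases of the cell cycle, chosen by name. The choice was made with earlier results of these data known, so counts of them set beside all genes are a description. All 39 genes were found by symbol among the 37620 gene identifiers of the tables. They were measured by mRNA sequencing in primary hepatocytes of C57BL/6 mice, labelled passage 1, which had been isolated with collagenase and cultured on gelatin with serum and insulin. The control was 1 library from cells given the solvent dimethyl sulfoxide (DMSO), for which the labels give no time, and the treated group was 2 libraries from cells given tauroursodeoxycholic acid (TUDCA), a taurine-conjugated bile acid, labelled 100 mM for 24 h. The dose is the labelled one. Because the time in DMSO is not given, culture time and TUDCA cannot be told apart. The series speaks of 2 independent experiments without saying which library came from which, nor how many mice were used. The p-values rest only on the spread between the 2 TUDCA libraries, pooled across genes of similar level, which may be technical.

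Cells that enter mitosis switch on a shared set of genes. Cyclins A2, B1 and B2 activate the kinase Cdk1, Polo and Aurora kinases build the spindle, kinetochore proteins tie chromosomes to microtubules, kinesin motors move and bundle those microtubules, and the anaphase-promoting complex then destroys the cyclins so that the cell can divide. Many of these genes share promoter elements, a CCAAT box bound by the factor NF-Y and a cell cycle genes homology region (CHR), through which they are repressed in resting cells and activated in G2. Hepatocytes in the adult liver are mostly quiescent but can enter the cell cycle again after injury or in culture.

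The promoter sequences are shown first, because they are a feature that the genes share and that was not used to choose them. RefSeq windows from 250 bases before to 50 bases after each annotated start (build GRCm38.p6) matched 32 of the 39 genes by symbol. The CHR core was searched as TTTGAA or TTCGAA and the NF-Y box as CCAAT, each on both strands. Matches that overlap, as CCAAT does on opposite strands in the Ube2c window, were each counted. The 250 bases before the start are printed 5′ to 3′ on the gene's strand for Cdk1 (chr10:69352913-69353162, minus strand), Cdc20 (chr4:118437344-118437593, minus strand), Ccnb2 (chr9:70421555-70421804, minus strand), Ube2c (chr2:164769679-164769928, plus strand) and Top2a (chr11:99024190-99024439, minus strand), with both motifs in capitals. The first 4 were shown by a rule that named well-known mitotic promoters, to be printed if they held both motifs before the start. The rule also named Ccnb1, which held no CHR core, and Plk1, whose only CHR core lay at position 30 after the start. Top2a was added after its values were seen.

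Cdk1: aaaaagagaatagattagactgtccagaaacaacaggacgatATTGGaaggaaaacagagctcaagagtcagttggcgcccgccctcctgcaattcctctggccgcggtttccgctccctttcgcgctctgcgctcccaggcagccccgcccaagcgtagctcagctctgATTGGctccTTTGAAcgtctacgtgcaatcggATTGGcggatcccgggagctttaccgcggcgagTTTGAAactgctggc
Cdc20: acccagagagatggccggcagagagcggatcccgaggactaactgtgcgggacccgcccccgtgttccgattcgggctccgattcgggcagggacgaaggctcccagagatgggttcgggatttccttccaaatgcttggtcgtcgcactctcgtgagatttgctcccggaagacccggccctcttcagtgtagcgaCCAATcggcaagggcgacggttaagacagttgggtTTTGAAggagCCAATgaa
Ccnb2: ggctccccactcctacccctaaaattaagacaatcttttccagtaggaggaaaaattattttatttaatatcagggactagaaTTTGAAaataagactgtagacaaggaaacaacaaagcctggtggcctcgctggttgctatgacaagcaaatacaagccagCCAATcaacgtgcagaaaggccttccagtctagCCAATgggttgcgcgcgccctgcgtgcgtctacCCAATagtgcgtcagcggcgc
Ube2c: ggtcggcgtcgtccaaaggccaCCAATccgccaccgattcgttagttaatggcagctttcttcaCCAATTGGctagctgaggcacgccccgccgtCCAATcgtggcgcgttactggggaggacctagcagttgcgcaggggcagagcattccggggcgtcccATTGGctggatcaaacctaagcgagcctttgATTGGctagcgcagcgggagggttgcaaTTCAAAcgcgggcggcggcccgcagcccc
Top2a: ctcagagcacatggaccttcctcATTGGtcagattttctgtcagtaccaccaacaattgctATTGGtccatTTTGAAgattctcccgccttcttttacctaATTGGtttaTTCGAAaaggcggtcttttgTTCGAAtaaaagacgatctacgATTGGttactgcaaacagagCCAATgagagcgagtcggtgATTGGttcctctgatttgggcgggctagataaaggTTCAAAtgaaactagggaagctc

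Cdk1 held 2 CHR cores and 3 CCAAT boxes before its start, Cdc20 held 1 and 2, Ccnb2 held 1 and 3, Ube2c held 1 and 6, and Top2a held 4 and 6. The printed CHR core of Ccnb2 lay before all 3 of its CCAAT boxes. Another Ccnb2 core, at position 4 after the start, is outside the printed bases, and a CCAAT box began 25 bases before it. Across the set, 26 of 32 windows (81.2%) held a CHR core, against 21.7% of the 27025 genes with a window and 16.1% of the 8690 of them that passed the expression filter. A CCAAT box was in 25 of 32 windows (78.1%), against 41.1% of all genes with a window. Both motifs were in 23 of 32 windows (71.9%) and in 8.61% of all windows' genes. In 18 of the 32 genes a CCAAT box began 1 to 60 bases before a CHR core, a spacing chosen after the positions were seen, and the same was true of 2.41% of all genes. The median distance in those 18 genes was 28 bases. A CHR core started within 50 bases of the annotated start in 24 genes. The letters of the CHR core were not in the windows of Birc5, Ccnb1, Cenpe, Mad2l1, Nuf2 and Nusap1. A match is a description of the sequence, not a measured binding site.

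**Figure D1:**
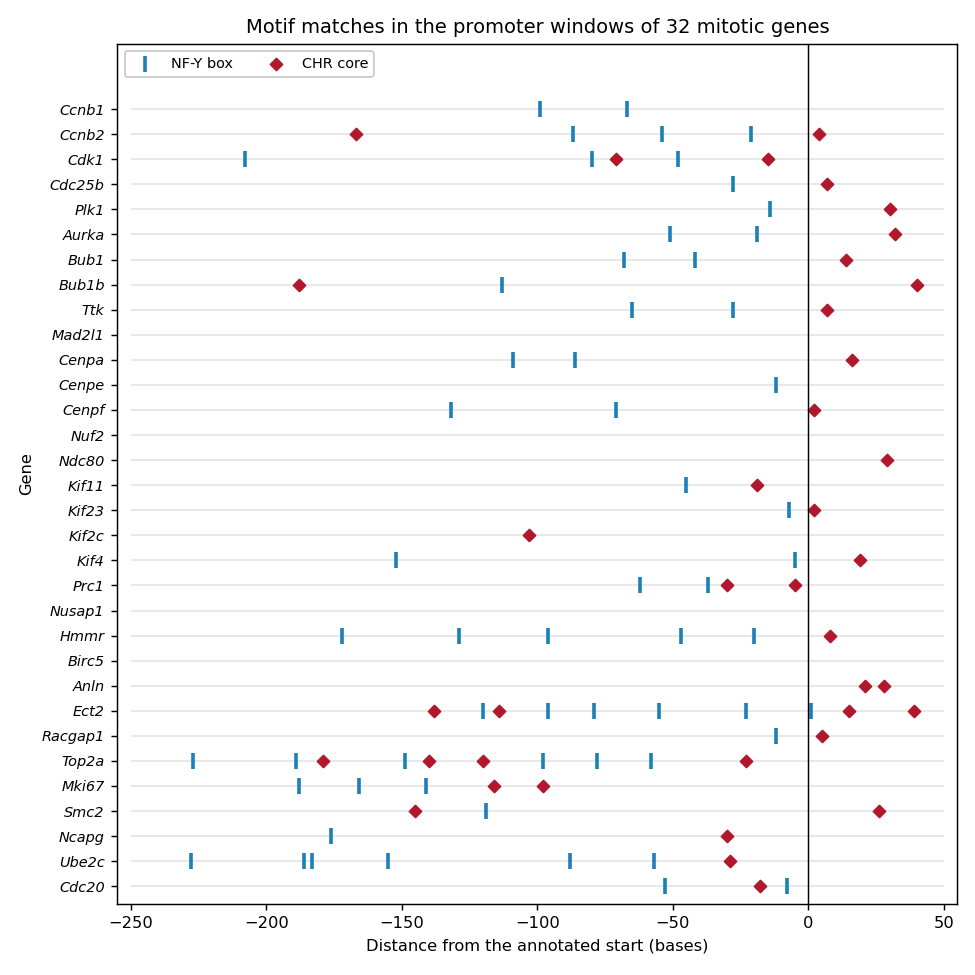
Positions of CHR cores (diamonds) and NF-Y boxes (bars) in the promoter windows of 32 mitotic genes, with distance in bases from the annotated start on the x axis and 1 gene per row; Ect2 and Prc1 have 2 annotated starts each and both are drawn. Most CHR cores lie near the start, within 50 bases of it in 24 genes, with NF-Y boxes before them.

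All 39 mitotic genes had higher levels in both TUDCA libraries than in the DMSO library. Levels are reads scaled to gene length and library size (RPKM), which allow genes to be compared per length. The sum over the 39 genes was 139.9 RPKM in DMSO, 275.4 RPKM in TUDCA replicate 1 and 249.0 RPKM in TUDCA replicate 2, which is 1.97 and 1.78 times DMSO. The median gene measured 2.53 RPKM in the DMSO library and, in the TUDCA libraries, 5.44 and 5.05 RPKM. Both TUDCA libraries lay above DMSO for 36.3% of the 19146 genes detected in any library and for 40.5% of the 11300 genes tested below. Both of these comparisons use the same single DMSO library, so 39 of 39 is a count and not a set of independent results. In RNA from a whole culture, more dividing cells and more mRNA in each of them cannot be told apart.

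**Figure D2:**
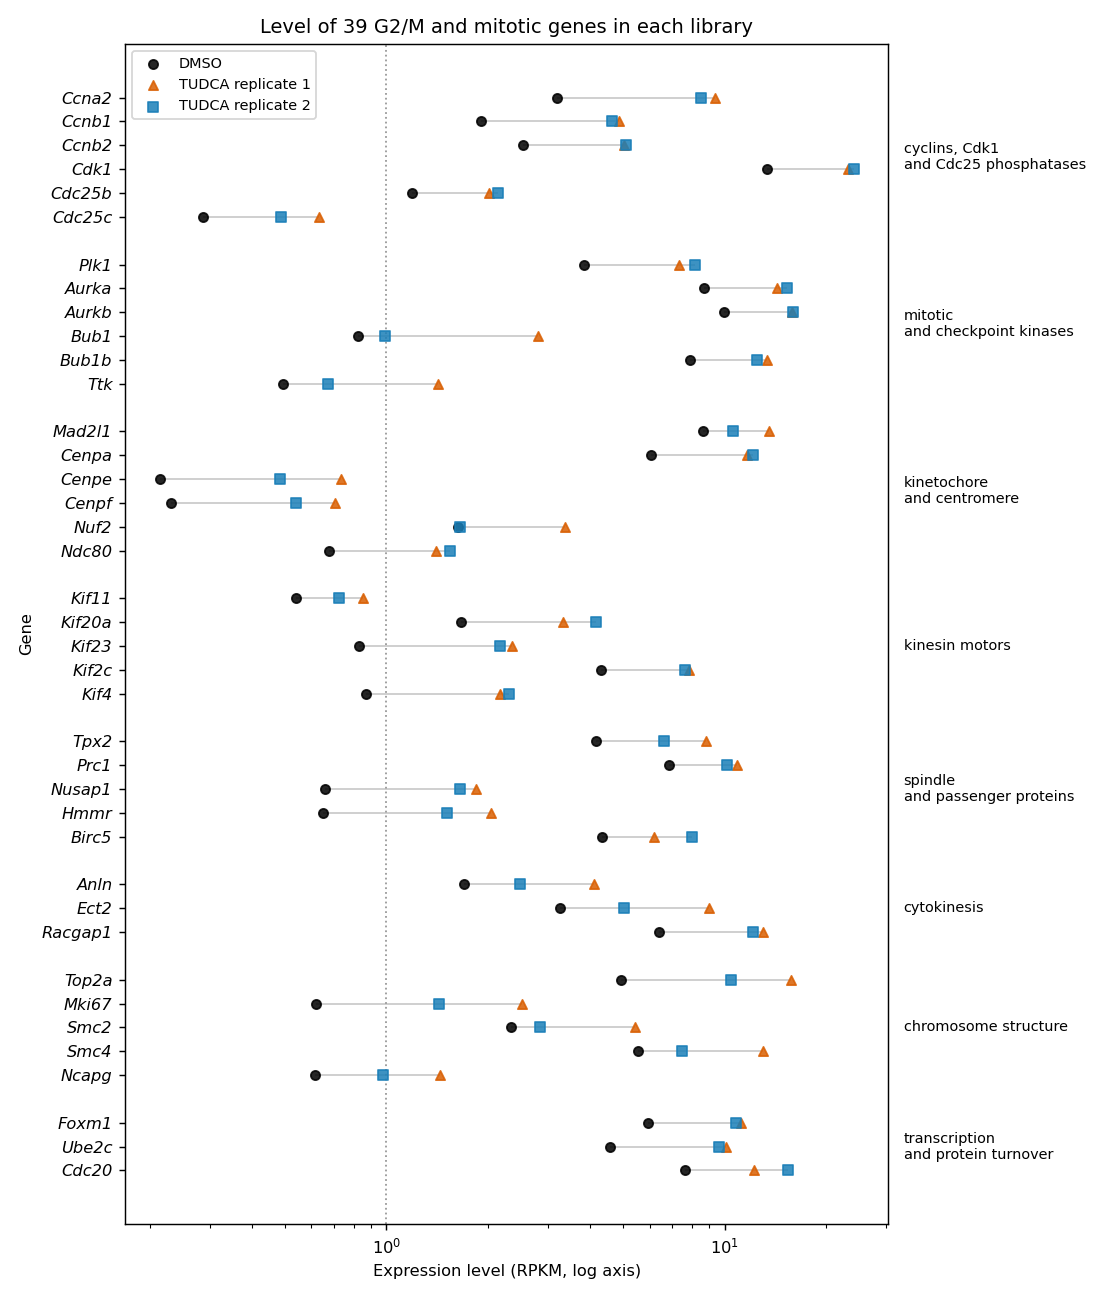
Level in RPKM (log axis) of each of the 39 genes in the DMSO library (black circles) and in TUDCA replicates 1 (orange triangles) and 2 (blue squares), grouped by role, with a dotted line at 1 RPKM. The black circle is the lowest of the 3 points in every row, and Nuf2 has its DMSO and TUDCA replicate 2 points almost on top of each other.

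Single genes were tested with limma on log2(RPKM + 1), which understates the change of low genes, and log2 fold changes are TUDCA minus DMSO on that scale ± SE. Testing was limited to genes that averaged 1 RPKM or more, and a gene was called at an adjusted p below 0.05 over all 11300 genes tested. The libraries held 9757547 to 10774289 reads. With 1 DMSO library, its spread was taken to equal that of the TUDCA pair. Limma gave each gene a spread common to genes of its level, so SE and p do not measure a gene's own spread. Of the 39 genes 34 passed the filter, and Cdc25c, Ttk, Cenpe, Cenpf and Kif11 did not. Of the 34, 8 were below 1 RPKM in DMSO and passed only through their TUDCA levels. The test called 4 of the 34 genes higher with TUDCA (Ccna2, Ccnb1, Ube2c and Top2a), none lower (also none at an unadjusted p below 0.05), and 30 were not called. Over all genes tested, 2.65% were called, 1.77% higher and 0.876% lower. With an unadjusted p below 0.05, 27 of the 34 were higher, against 6.58% of all genes tested.

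A rule of size that needs no model gave more members. A difference of at least 0.5 on the log2(RPKM + 1) scale, higher in both TUDCA libraries, was reached by 25 of the 39 genes, all of them among the 34 tested. The same rule was met by 4.66% of the 11300 genes tested and by 3.11% of the 19146 genes above 0, and 2.16% of the genes tested were lower by as much in both libraries. The median log2 fold change of the 34 genes was 0.74, beside 0.04 over all genes tested, and over all 39 genes it was 0.73, beside 0.03 over genes above 0. The mean difference from DMSO was larger than the difference between the TUDCA libraries in 35 of the 39 genes. That held in either direction for 49.5% of all genes tested.

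**Figure D3:**
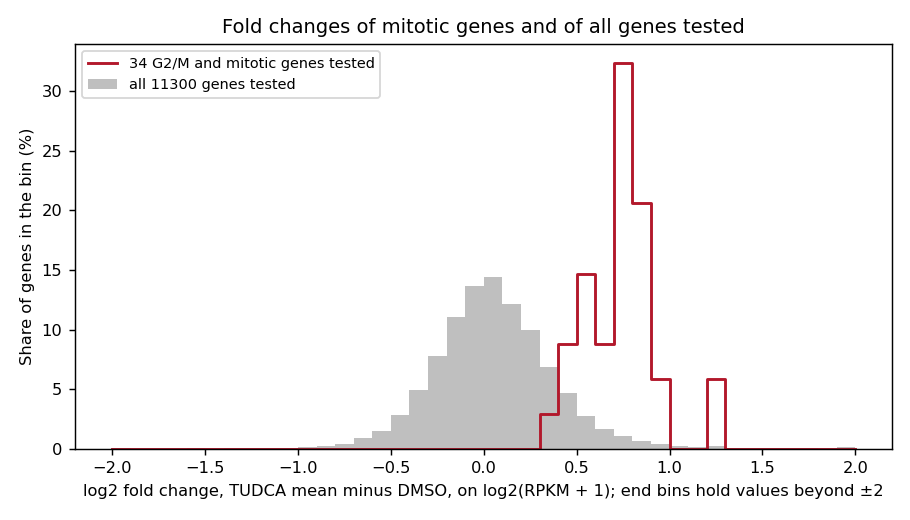
Share of genes (%) in bins of 0.1 of the log2 fold change of TUDCA against DMSO, for all 11300 genes tested (grey bars) and for the 34 mitotic genes tested (red line). All 34 fold changes lie between 0.38 and 1.24, with a median of 0.74, while the median of all genes is 0.04.

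Among the cyclins and the activators of Cdk1, Ccna2 and Ccnb1 rose and the other members were higher without being called. Ccna2 (ENSMUSG00000027715), cyclin A2, which acts in S phase and G2, stood at 3.20 RPKM in DMSO against 9.35 and 8.51 RPKM in the treated libraries. The TUDCA libraries lay close together and well above DMSO, with a mean of 8.93 ± 0.594 RPKM (SD, n = 2), and the gene rose by a log2 fold change of 1.24 ± 0.29 (limma adjusted p = 0.00145). It was the only member at least 1 higher on the log2 scale in both libraries, by 1.30 and 1.18. Ccnb1 (ENSMUSG00000041431), cyclin B1, the main partner of Cdk1 at the entry into mitosis, measured 1.91 RPKM in the DMSO library and, in the TUDCA libraries, 4.89 and 4.63 RPKM (log2 fold change 0.99 ± 0.30, limma adjusted p = 0.0445), and the TUDCA mean was 4.76 ± 0.179 RPKM (SD, n = 2). Its call stood close to the threshold and was lost with TPM scaling (adjusted p = 0.0593), median centring (0.0518), quantile normalization (0.111), voom (0.0593) and after correction for GC content and length (0.0587). Ccnb2, cyclin B2, stood at 2.53 RPKM in DMSO against 5.05 and 5.09 RPKM in the treated libraries, almost the same value in both TUDCA libraries (limma adjusted p = 0.182).

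Cdk1, the kinase that drives mitosis, was the most highly expressed of the 39 genes in every library. It measured 13.3 RPKM in the DMSO library and, in the TUDCA libraries, 23.1 and 24.1 RPKM (log2 fold change 0.78 ± 0.25, limma adjusted p = 0.0669). Only correcting for GC content and length, among the alternatives run, brought a call (adjusted p = 0.0460, or 0.0316 with implied lengths). The phosphatases Cdc25b and Cdc25c, which remove the inhibitory phosphates from Cdk1, were expressed at low levels. Cdc25b stood at 1.19 RPKM in DMSO against 2.01 and 2.14 RPKM in the treated libraries. Cdc25c measured 0.287 RPKM in the DMSO library and, in the TUDCA libraries, 0.634 and 0.487 RPKM, from 6, 12 and 10 reads, which are the smallest whole numbers that the RPKM values allow.

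None of the mitotic and checkpoint kinases was called by limma. Of the 5 of 6 that were tested 4 had an unadjusted p below 0.05, beside 6.58% of all genes tested that were higher. Plk1, the Polo kinase of centrosome maturation and mitotic entry, stood at 3.83 RPKM in DMSO against 7.35 and 8.16 RPKM in the treated libraries (log2 fold change 0.86 ± 0.29, limma adjusted p = 0.0962), and was called once GC content and length were corrected for (adjusted p = 0.0364). Aurka, the Aurora kinase of the spindle poles, measured 8.69 RPKM in the DMSO library and, in the TUDCA libraries, 14.3 and 15.3 RPKM. Aurkb, the Aurora kinase of the chromosomal passenger complex, stood at 9.93 RPKM in DMSO against 15.8 and 16.0 RPKM in the treated libraries. For these 3 kinases the TUDCA libraries differed by at most 0.13 on the log2 scale and lay 0.62 or more above DMSO. Bub1b, which encodes the checkpoint protein BubR1, measured 7.88 RPKM in the DMSO library and, in the TUDCA libraries, 13.4 and 12.5 RPKM.

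Bub1 and Ttk, kinases of the spindle assembly checkpoint, differed more between the TUDCA libraries than the mean of those libraries differed from DMSO on the log2 scale. Bub1 had 0.825 RPKM in DMSO, 2.81 RPKM in TUDCA replicate 1 and 0.993 RPKM in TUDCA replicate 2. Ttk had 0.494, 1.42 and 0.671 RPKM in the same order. TUDCA replicate 2 lay nearer to DMSO than to TUDCA replicate 1 for both.

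Limma called none of the 4 kinetochore and centromere genes tested. An unadjusted p below 0.05 was reached by 1 of the 4, beside 6.58% of all genes tested that were higher. Of these genes, Cenpa had similar levels in both TUDCA libraries and Nuf2 did not. Cenpa, the histone H3 variant that marks centromeres, stood at 6.05 RPKM in DMSO against 11.6 and 12.1 RPKM in the treated libraries (log2 fold change 0.87 ± 0.28, limma adjusted p = 0.0602). It was called with a pseudocount of 0.1 (adjusted p = 0.0441) and once GC content and length were corrected for (0.0359). Nuf2 and Ndc80 encode partners in the complex that binds microtubules. Nuf2 had 1.62 RPKM in DMSO, 3.37 RPKM in TUDCA replicate 1 and 1.65 RPKM in TUDCA replicate 2, so the second TUDCA library was level with DMSO, the smallest difference among the 39 genes at 0.02. Ndc80 measured 0.675 RPKM in the DMSO library and, in the TUDCA libraries, 1.40 and 1.55 RPKM. Mad2l1, which encodes the checkpoint protein Mad2, stood at 8.61 RPKM in DMSO against 13.5 and 10.6 RPKM in the treated libraries. The large kinetochore proteins Cenpe, itself a kinesin, and Cenpf were the lowest of all members in DMSO at 0.214 and 0.230 RPKM. With TUDCA, Cenpe had 0.735 and 0.484 RPKM and Cenpf 0.704 and 0.541 RPKM.

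Of the kinesin motors 4 were tested and limma called none. Their fold changes on the log2(RPKM + 1) scale, which compresses low genes, ran from 0.72 for Kif2c to 0.83 for Kif23. As plain ratios of the TUDCA mean to DMSO they ran from 1.79 for Kif2c to 2.73 for Kif23, and with voom from 0.84 to 1.39 on the log2 scale. All 4 had an unadjusted p below 0.05, beside 6.58% of all genes tested that were higher. Of the 4, Kif23 and Kif4 passed the filter only through their TUDCA levels. Kif20a, which works with Kif23 at the central spindle during cytokinesis, measured 1.66 RPKM in the DMSO library and, in the TUDCA libraries, 3.34 and 4.15 RPKM, and voom, which called 1.67% of all genes higher, called it (adjusted p = 0.0418, limma 0.153). Kif23, a subunit of centralspindlin, stood at 0.829 RPKM in DMSO against 2.35 and 2.17 RPKM in the treated libraries. These values came from at least 7, 18 and 18 reads, and voom did not call Kif23 (adjusted p = 0.345). Kif2c, which depolymerises microtubules at centromeres, measured 4.31 RPKM in the DMSO library and, in the TUDCA libraries, 7.85 and 7.61 RPKM. Kif4, a motor of chromosome arms and the central spindle, stood at 0.872 RPKM in DMSO against 2.17 and 2.31 RPKM in the treated libraries. In all 4 the TUDCA libraries lay closer to each other than to DMSO. Kif11, the motor that pushes the spindle poles apart, was lower at 0.539 RPKM in DMSO against 0.851 and 0.726 RPKM in the treated libraries, and was not tested.

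**Figure D4:**
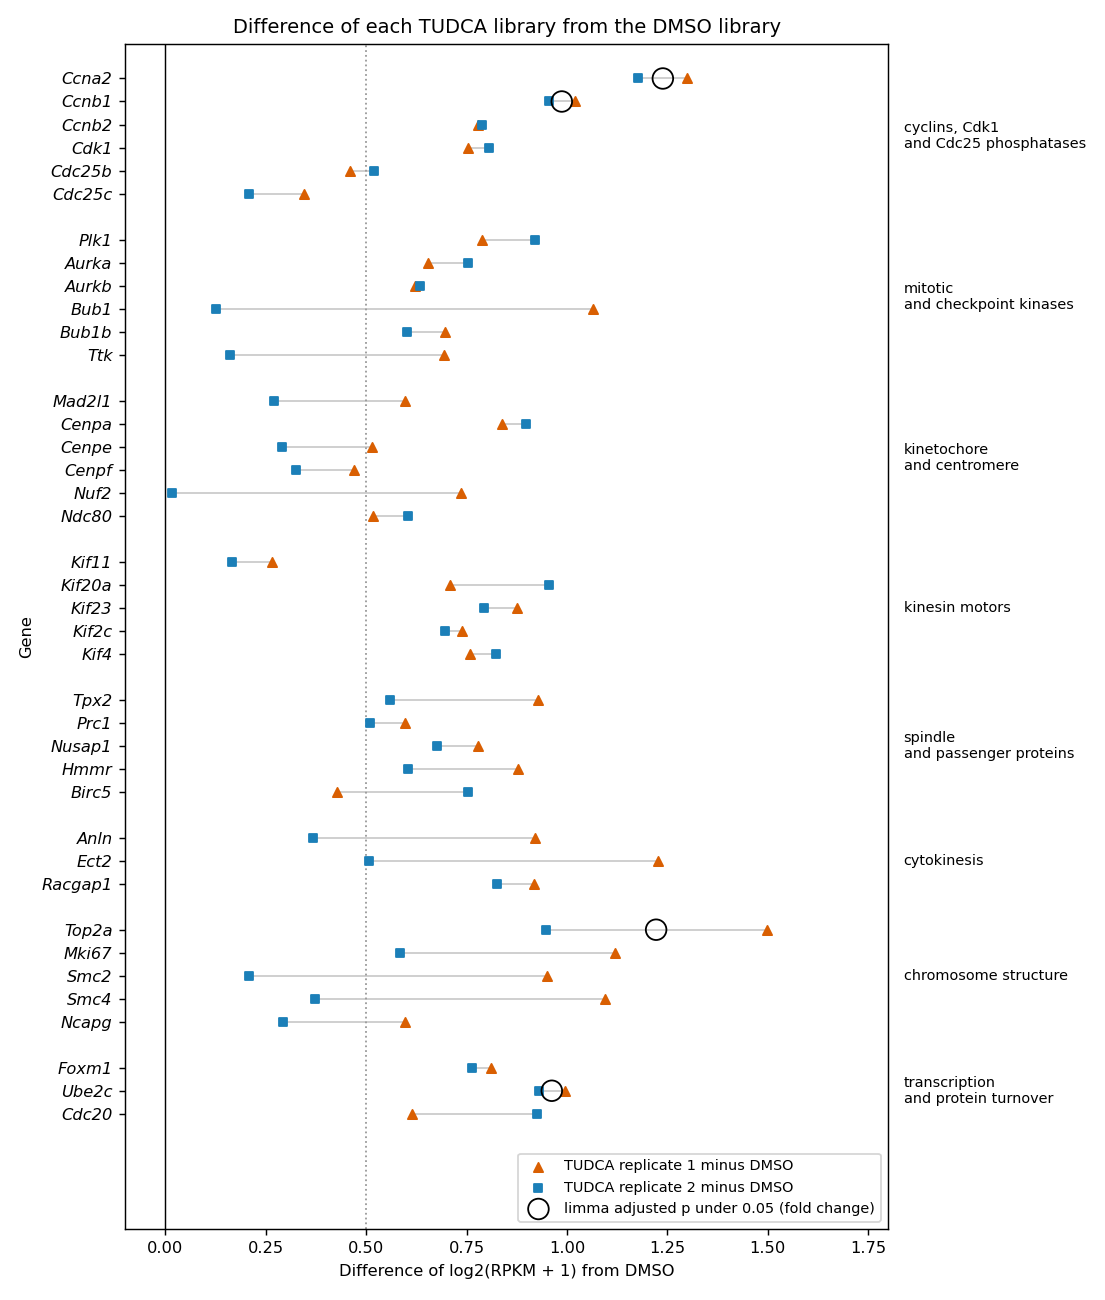
Difference of log2(RPKM + 1) from DMSO for TUDCA replicate 1 (orange triangles) and TUDCA replicate 2 (blue squares), 1 gene per row grouped by role, with a dotted line at 0.5; black rings mark the fold changes of the 4 genes called by limma. No point lies below 0, and the condensin genes Smc2 and Smc4, Bub1, Ttk and Nuf2 have widely separated points.

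The 5 spindle and passenger proteins and the 3 cytokinesis genes held no member called by limma. All of them had an unadjusted p below 0.05, beside 6.58% of all genes tested that were higher. Nusap1 and Hmmr had passed the filter only through their TUDCA levels. Tpx2, the activator of Aurka on spindle microtubules, measured 4.16 RPKM in the DMSO library and, in the TUDCA libraries, 8.82 and 6.60 RPKM. Prc1, which bundles the microtubules of the central spindle, stood at 6.84 RPKM in DMSO against 10.8 and 10.1 RPKM in the treated libraries. The microtubule-binding proteins Nusap1 and Hmmr were low in DMSO, at 0.656 and 0.649 RPKM, and had 1.84 and 1.65 RPKM and 2.03 and 1.51 RPKM with TUDCA. Birc5 (survivin), a subunit of the chromosomal passenger complex, measured 4.34 RPKM in the DMSO library and, in the TUDCA libraries, 6.19 and 8.00 RPKM, and was among the 12 of 39 genes that were higher in TUDCA replicate 2 than in replicate 1.

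Racgap1, the other subunit of centralspindlin, stood at 6.41 RPKM in DMSO against 13.0 and 12.1 RPKM in the treated libraries (log2 fold change 0.87 ± 0.28, limma adjusted p = 0.0566). It passed with robust estimation (adjusted p = 0.0494), with a pseudocount of 0.1 (0.0405) and once GC content and length were corrected for (0.0378). The first of these called 1.75% and the second 1.98% of all genes higher. Ect2, the exchange factor that activates RhoA at the cleavage furrow, measured 3.26 RPKM in the DMSO library and, in the TUDCA libraries, 8.97 and 5.05 RPKM. Anln (anillin), a scaffold of the contractile ring, stood at 1.69 RPKM in DMSO against 4.10 and 2.48 RPKM in the treated libraries. Ect2 and Anln were thus higher in TUDCA replicate 1 than in replicate 2, while Racgap1 was nearly level between them.

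Among the chromosome structure genes Top2a rose, and all 5 were higher in TUDCA replicate 1 than in replicate 2. Top2a (ENSMUSG00000020914), topoisomerase II alpha, which untangles sister chromatids, measured 4.94 RPKM in the DMSO library and, in the TUDCA libraries, 15.8 and 10.4 RPKM (log2 fold change 1.22 ± 0.28, limma adjusted p = 8.9e-04). The TUDCA mean was 13.1 ± 3.76 RPKM (SD, n = 2). The log2 difference of Top2a from DMSO was 1.50 in TUDCA replicate 1 and 0.95 in replicate 2, which lay 0.55 apart. Its SE and p come from the common spread and do not measure this distance. Mki67, which encodes the proliferation marker Ki-67 of the chromosome surface, stood at 0.617 RPKM in DMSO against 2.51 and 1.43 RPKM in the treated libraries. Those values came from at least 67, 247 and 152 reads over a long transcript. The log2(RPKM + 1) scale gave Mki67 a fold change of 0.85 ± 0.32 (limma adjusted p = 0.161). Run on these smallest whole reads, without the added 1 RPKM, voom called it (adjusted p = 3.6e-04). Over all genes tested voom called 1.67% higher. Mki67 had passed the filter only through its TUDCA levels.

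Smc2, Smc4 and Ncapg encode subunits of condensin, the complex that compacts mitotic chromosomes. Smc2 had 2.33 RPKM in DMSO, 5.44 RPKM in TUDCA replicate 1 and 2.85 RPKM in replicate 2. Smc4 had 5.53, 13.0 and 7.47 RPKM, and Ncapg 0.614, 1.44 and 0.977 RPKM, in the same order. TUDCA replicate 2 lay nearer to DMSO than to replicate 1 for Smc2 and Smc4, and for Ncapg it lay about midway, 0.29 above DMSO and 0.30 below replicate 1 on the log2 scale.

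The 3 members of transcription and protein turnover were lowest in DMSO, with TUDCA replicate 1 above replicate 2 for Ube2c and Foxm1 and below it for Cdc20. Ube2c (ENSMUSG00000001403), the ubiquitin-conjugating enzyme of the anaphase-promoting complex, measured 4.58 RPKM in the DMSO library and, in the TUDCA libraries, 10.1 and 9.64 RPKM and rose (log2 fold change 0.96 ± 0.28, limma adjusted p = 0.0319), a call lost with quantile normalization (adjusted p = 0.105). Its TUDCA mean was 9.88 ± 0.342 RPKM (SD, n = 2). Cdc20, the activator of that complex at anaphase, stood at 7.64 RPKM in DMSO against 12.2 and 15.4 RPKM in the treated libraries. Foxm1, a transcription factor that activates G2 and M genes, measured 5.95 RPKM in the DMSO library and, in the TUDCA libraries, 11.2 and 10.8 RPKM. Neither Cdc20 nor Foxm1 was called (limma adjusted p = 0.119 and 0.123), and both passed once GC content and length were corrected for (adjusted p = 0.0408 and 0.0470). Without a filter on low values none of the 4 called genes passed, with adjusted p of 0.509 for Ccna2, 0.530 for Ube2c, 0.550 for Ccnb1 and 0.589 for Top2a, and no gene of the series did, although 1696 had an unadjusted p below 0.05.

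The TUDCA libraries did not differ from each other evenly across the 39 genes. In 9 genes (Bub1, Smc2, Ect2, Smc4, Nuf2, Anln, Top2a, Mki67 and Ttk) TUDCA replicate 1 was more than 0.5 above replicate 2 on the log2(RPKM + 1) scale, and in none was replicate 2 that far above replicate 1. Over all genes tested 6.10% had TUDCA replicate 1 that much higher. The transcripts of those 9 genes had a GC content of 39.4 to 46.7%, beside a median of 46.4% for the 39 genes and 50.3% for all genes tested. Across the 34 members that were tested, GC content and the difference between the TUDCA libraries had a Pearson r of -0.71, and across 11149 genes tested the r was -0.53. These points share the same libraries and are described without a test. For the difference of TUDCA replicate 1 from DMSO the r was -0.30 over the members and -0.36 over all genes, and for replicate 2 it was 0.60 and 0.05. The part of GC content in the differences between the libraries was not tested. After the correction for GC content and length all 34 members kept a positive fold change, with a median of 0.67 beside -0.02 over all genes. It called 9 of the 34 genes, which were Ccna2, Ube2c, Top2a, Cdk1, Plk1, Cenpa, Racgap1, Foxm1 and Cdc20, beside 1.58% of all genes called higher. The split of all called genes moved from 200 higher and 99 lower to 176 higher and 135 lower. An unadjusted limma p below 0.05 was reached by 1216 of 11300 genes without the correction and by 2074 of 11149 with it. Among the 34 members these counts were 27 and 26, and their median fold change without the correction was 0.74. The same 9 members were called when the correction used the gene length that the RPKM values imply, with 1.83% of all genes called higher.

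**Figure D5:**
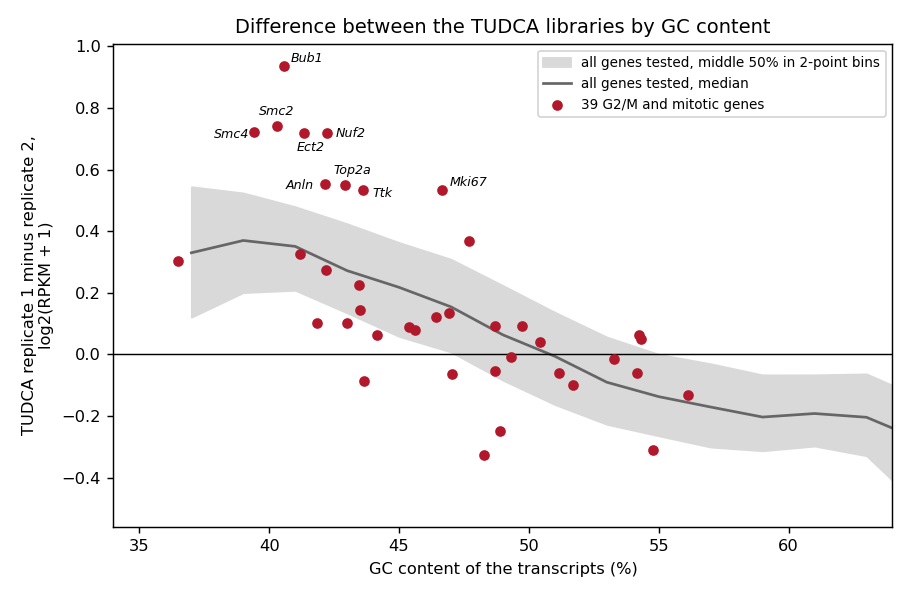
Difference of log2(RPKM + 1) between TUDCA replicates 1 and 2 against the GC content of the transcripts (%) for the 39 mitotic genes (red points), with the median (line) and middle 50% (band) of all genes tested in bins of 2 percentage points. The 9 named genes lie more than 0.5 above 0, at GC contents of 39.4 to 46.7%, and the line of all genes falls with GC content as well.

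Further genes of mitosis were taken from a list of 56 that holds none of the 39. Of these, 45 were tested, 1 was called higher, none was called lower and 44 were not called, beside 1.77% of all genes called higher. At an unadjusted limma p below 0.05, 10 of the 45 were higher, beside 6.58% of all genes tested, and none was lower. Of the 45, 9 met the rule of size for higher levels, beside 4.66% of all genes tested. The called gene was Cdca3, which triggers mitotic entry through the turnover of the kinase Wee1, at 3.70 RPKM in DMSO against 9.32 and 9.10 RPKM in the treated libraries (log2 fold change 1.12 ± 0.29, limma adjusted p = 0.00613). The median log2 fold change of the 45 genes was 0.30, beside 0.04 over all genes tested. Both TUDCA libraries lay above DMSO for 43 of the 56 and below it for 4, beside 36.3% above it over all genes detected. A CHR core was in 30 of the 43 windows found for this list (69.8%), and a CCAAT box was in 30 of the 43 as well. Its genes with a CHR core had a median difference from DMSO of 0.29 (n = 30) and those without had 0.06 (n = 13), and among the 39 main genes these medians were 0.73 (n = 26) and 0.51 (n = 6), given as a description without a test.

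A list of 30 genes of DNA replication and the G1/S transition, all of them tested, had a median log2 fold change of 0.00. Limma called none of them in either direction, beside 2.65% of all genes tested. At an unadjusted limma p below 0.05, 2 were higher and 2 lower, beside 6.58% of all genes tested that were higher. The members with the highest DMSO levels were Mcm7, a subunit of the replicative helicase, at 121.6, 117.9 and 120.1 RPKM in DMSO and TUDCA replicates 1 and 2, and Pcna, the sliding clamp of DNA polymerase, at 104.4, 91.6 and 76.3 RPKM. Both TUDCA libraries lay above DMSO for 12 of the 30 genes, near the 40.5% of all genes tested, and below it for 13. A CHR core was in 4 of the 24 windows found (16.7%) and a CCAAT box in 15 of them (62.5%). The difference between this list and the mitotic genes was not tested.

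The labelled cell type was checked against its markers. The 9 hepatocyte markers found, among them albumin (Alb) at 5771 RPKM in DMSO against 7177 and 6111 RPKM in the treated libraries, summed to 11474 RPKM in DMSO and to 14581 and 12622 RPKM in TUDCA replicates 1 and 2, and Hnf4a and Fgb were called higher. The hepatocyte markers differed widely in level. The lowest, Cps1, had 2.62 RPKM in DMSO against 5.79 and 6.08 RPKM in the treated libraries, and was named after its values were seen. Markers of other cells that could divide in the culture had lower summed levels. The 9 macrophage and Kupffer cell markers summed to 306.8, 272.3 and 289.7 RPKM in DMSO and TUDCA replicates 1 and 2, the 9 stellate cell and fibroblast markers to 15.3, 13.3 and 11.4 RPKM, and the 8 endothelial markers to 10.3, 14.0 and 15.5 RPKM, with no member of these lists called by limma or past an unadjusted p of 0.05. Of the macrophage markers 4 (Adgre1, Clec4f, Csf1r and Vsig4, named after their values were seen) were above DMSO in both TUDCA libraries and 5 were below it in both. The most abundant of each were Cd68 at 170.4, 154.3 and 169.4 RPKM, Dcn (decorin) at 6.31, 5.74 and 4.76 RPKM, and Egfl7 at 7.46, 9.31 and 11.7 RPKM. The 7 leukocyte markers summed to 0.530, 1.04 and 0.696 RPKM, with Cd3e, Cd3g and Trac at 0 in all libraries. The 6 biliary markers summed to 419.2, 803.8 and 627.4 RPKM with Cftr at 0, and their sum was mostly Spp1 (osteopontin), which rose from 387.5 RPKM to 767.5 and 578.2 RPKM (limma adjusted p = 0.00464). Endothelial, leukocyte, biliary and hepatocyte sums were thus higher in both TUDCA libraries, as the mitotic genes were, but their single markers were mixed. Both TUDCA libraries lay above DMSO for 6 of 9 hepatocyte, 5 of 8 endothelial, 2 of 7 leukocyte and 2 of 6 biliary markers. The share over all genes detected was 36.3%. Both lay below DMSO for 1 hepatocyte marker and for none in the other lists just named. Of the leukocyte markers 4 were at 0 in every library. The part of these cell types in the mitotic result was not tested.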

How the data were processed

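Values are the authors' deposited RPKM, 1 table per library; no fold change or p-value was taken from the authors. HTSeq, Bowtie2, TopHat2 2.0.7 and CASAVA appear in the submitters' processing notes, with no role or order. The sources used here state no genome build, annotation or strand setting for the counting, and reads of overlapping or antisense genes cannot be told apart. Library totals of 10774289 (DMSO), 9757547 and 10575699 reads (TUDCA replicates 1 and 2) were recovered from the RPKM values, with the smallest whole reads per gene that fit a whole length, within 1e-05 reads. These add up to 95.7 to 95.8% of the totals, so a gene's reads may be a multiple. Members had 6 to 151 such reads in DMSO, 17 of the 39 under 50, which limits their precision.

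A reference table of gene names gave symbols for 32897 of the 37620 identifiers. The test was limma 3.58.1 in R 4.3.3 (lmFit, eBayes with trend) on log2(RPKM + 1) at a mean of at least 1 RPKM, Benjamini-Hochberg adjusted. The 1 residual degree of freedom comes from the TUDCA pair, the lone DMSO library is assumed to vary like it, and at this filter limma gave each gene the common spread (SD of 0.159 to 0.265). Promoters are RefSeq, GRCm38.p6. GC content and exon length came from GENCODE M21, fitted with mgcv 1.9.3. Scripts were tested on simulated data. All 39 genes are named, with the called genes of the other lists, the most abundant members of lists with none called, albumin and markers at 0, apart from 1 item that is not reported here. Some cell type markers were also named after their values were seen, as stated with them. Members, lists and rules were chosen with earlier results of these data known.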

Additional observations from a re-analysis of the deposited data

How the results depend on the processing

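The direction of all 34 tested members was positive with TPM, quantile normalization, median centring, voom and the GC and length correction. With no filter, a 5 RPKM filter (19 members left), no trend and robust estimation each gene kept the fold change of the main test. The direction could therefore not change there. A pseudocount of 0.1 and each TUDCA library alone could not change it either, because both TUDCA libraries lay above DMSO for every member. Of 359 values of single members with a test under these settings, 331 stayed on their side of the threshold, 17 gained a call and 11 lost one. Without the filter 0 members and 0 genes of the series were called, although 17 of 39 members and 1696 of 19146 genes had an unadjusted limma p below 0.05. The count of 4 called members became 2 with quantile normalization, which called 165 of the 11300 genes tested higher. It became 9 with the GC and length correction. It was also 9 with that correction on the gene length implied by the RPKM values, which was added after seeing the data. These corrections also moved the split of all called genes from 200 higher and 99 lower to 176 and 135, and to 204 and 184. The median log2 fold change of the members was 0.91 with a pseudocount of 0.1, 0.94 with voom, 0.61 with quantile normalization, 0.67 with median centring and 0.67 with the GC and length correction. Without 1 TUDCA replicate it was 0.69 to 0.78, and 27 to 32 of the 34 members were at least 0.5 above DMSO. With 1 TUDCA library this rule is looser than the rule that needs both. At a filter of 5 RPKM 16 of 19 members met the rule of size. The share of all genes that met the rule was not counted under these settings. Cause was not tested for these changes, other than the fewer genes at the stricter filter. With 1 library a group no count of called genes can be given. No paired analysis was possible because the DMSO group has 1 library and its label carries no number. With 1 DMSO library, no value here measures how far DMSO cultures vary.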
